A study of Bos taurus with 8 samples.

Results

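The genes described here encode the proteins of the cytosolic ribosome, and they were followed in peripheral blood mononuclear cells (PBMCs) of cows on bovine 1-colour arrays. Members were all noncontrol probes whose accession maps to a symbol of RPL or RPS followed by a number, with an optional A, L, X or Y, together with RPLP0, RPLP1, RPLP2 and RPSA. The RPS6K kinases and pseudogenes were left out, and no measured value entered the choice. The array carried 78 such genes of 26667 gene names, on 249 of its 43653 noncontrol probes, with 1 to 8 probes per gene. Of these, 76 genes (45 of the large subunit with its P stalk and 31 of the small subunit) had at least 1 probe well above background on every array of some group, so they were among the 15137 genes tested. The remaining 2, RPL3L and RPL10L, are copies known from human tissues as restricted mainly to muscle and testis, and none of their probes met that condition. RPL22 and RPS14 had no matched probe.

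The study asked which genes differ in PBMCs in relation to lameness in crossbred and Tharparkar cows, Tharparkar being an indigenous dairy breed of South Asia. Its groups were lame crossbred cows (4 arrays, R1_1, R1_2, R2_1 and R2_2), normal crossbred cows (2 arrays, R1 and R2) and normal Tharparkar cows (2 arrays, R1 and R2). The labels name no treatment, genotype, age or cause of lameness, and there were no lame Tharparkar cows. The labelling protocol says that RNA was run in technical duplicate, so the lame arrays were read as the RNA samples lame R1 and lame R2 in duplicate, and each normal group as 1 RNA sample in duplicate. The labels do not say whether each RNA sample is 1 cow or a pool, so p-values here reflect array-to-array spread, which may be technical, and would be too small for a statement about cows.

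A ribosome joins a small subunit, which reads the messenger RNA, to a large subunit, which links amino acids, and each subunit is built from ribosomal RNA and many different proteins, nearly all present once per ribosome. The mRNAs of nearly all these proteins start with a terminal oligopyrimidine (TOP) tract and are among the most abundant in lymphocytes. In blood they are known to be more abundant in lymphocytes than in mature granulocytes.

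Values are log2 processed signals from which the 75th percentile of the same array was subtracted, so that 0 is the brightness at that percentile, and a gene is represented by its brightest measured probe. Lame R2_2 stood apart from the other 7 arrays: 70.9% of its probes lay well above background, against 52.7% to 61.4%, and its median raw signal was 192.5, against 74 to 102. No spot was saturated. Slides 1 and 2 each carried 1 array of each of the 4 RNA samples. The leukocyte gene PTPRC lay between 4.69 and 5.30 on the 8 arrays, and the B cell gene CD79A between 4.60 and 5.70. The T cell gene CD3E lay between -0.12 and 1.06.

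Scaled by the 75th percentile, the ribosomal protein genes were highest in lame R1 and lowest in lame R2, with both normal groups between them. The median of the 76 genes was 6.37 and 6.32 on the lame R1 arrays and 5.78 and 5.66 on the lame R2 arrays, against 5.98 and 5.96 on the normal crossbred arrays and 6.16 and 6.19 on the normal Tharparkar arrays. The lame arrays therefore bracketed all 4 normal arrays, and the mean of the lame group hid samples lying on opposite sides of them. Of the 76 genes, 34 were brightest on lame R1_1 and 29 on lame R1_2, while 20 were dimmest on lame R2_1 and 49 on lame R2_2. Duplicates lay close together: the median SD between the arrays of a pair was 0.06 for lame R1, 0.08 for lame R2, 0.04 for normal crossbred and 0.05 for normal Tharparkar. In bulk RNA, fewer cells of a type and less RNA per cell cannot be told apart.

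**Figure D1:**
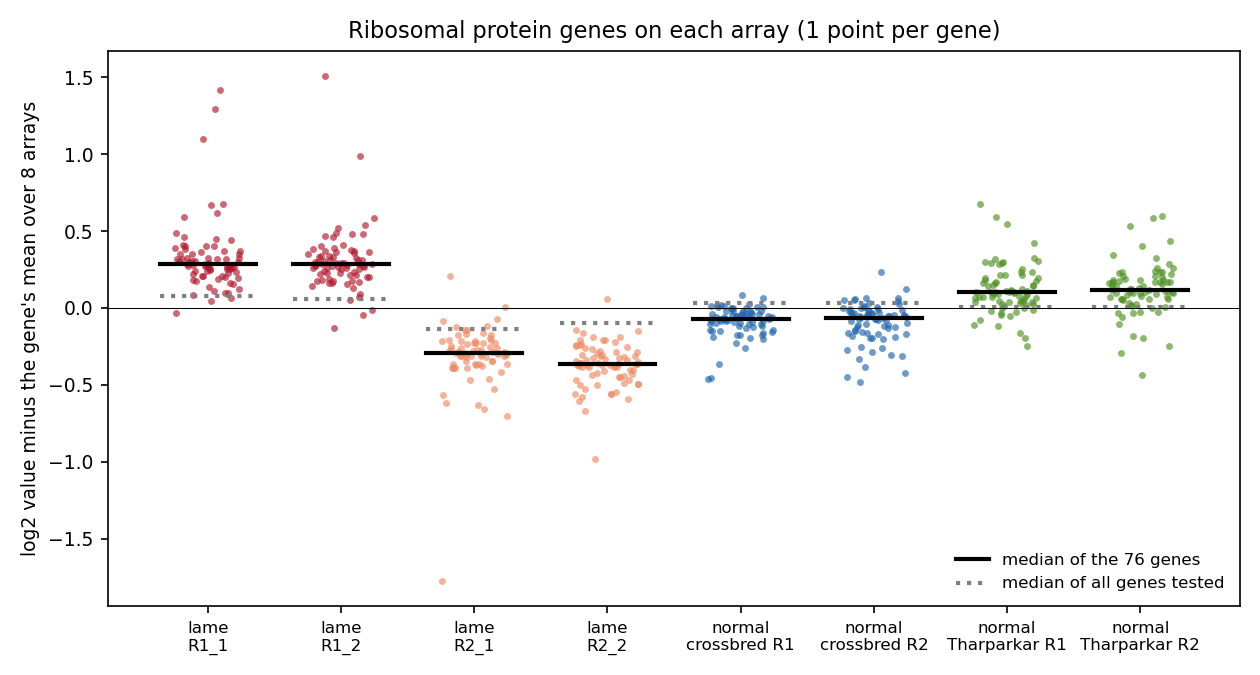
Each point is 1 of the 76 ribosomal protein genes, drawn as its log2 value minus its own mean over the 8 arrays (y axis) for each array (x axis). Black lines are the medians of the 76 genes (0.28 on both lame R1 arrays, -0.29 and -0.36 on the lame R2 arrays, -0.07 and -0.06 for normal crossbred, 0.10 and 0.12 for normal Tharparkar) and dotted lines the medians of all genes tested.

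Between the lame samples, the ribosomal protein genes had a median of 0.60 on the log2 scale for lame R1 minus lame R2 (1.51-fold), against 0.18 for all 15137 genes. It was 0.58 on slide 1 and 0.63 on slide 2. Both lame R1 arrays lay above both lame R2 arrays in 75 of the 76 genes (98.7%), and the same held for 48.5% of all genes tested. Both lay below in 1 gene, RPSA, against 28.5% of all genes. The large and small subunit moved alike, with medians of 0.60 over 45 genes and 0.59 over 31. Counting single probes, 238 of 242 were higher on average in lame R1 and 226 were so without overlap (93.4%, against 39.5% of all 24658 probes). With 1 RNA sample in each arm, this difference has no test beyond technical duplicates.

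This shift depended on the scaling and moved with probe brightness. It was 0.63 after normexp background correction and 1.54 when arrays were scaled by their median, which lifted the median of all genes to 1.12, but 0.06 after quantile normalization, where 30 of 76 genes kept both lame R1 arrays above both lame R2 arrays and the family lay below the median of all genes (0.16). Ribosomal protein genes are bright on this array: 70 of the 76 fell in the brightest decile of genes. The other genes of that decile had a median of 0.51 for lame R1 minus lame R2, and 85.3% of them had both lame R1 arrays above both lame R2 arrays, against 100% of the 70 members. In the dimmest decile the median was -0.70. The part of brightness in the shift was not tested. The 12 proliferating cell markers moved with it too: the summed level of the 9 measured was 22 to 22.6 times the array's 75th percentile signal in lame R1 and 14.3 to 15.9 times in lame R2. For the 7 of 12 B cell markers measured the sum was 156 to 173 in lame R1 and 105 to 122 in lame R2, and for the 14 of 17 granulocyte markers measured it was 105 to 118 and 104 to 122. T cell markers (16 of 18 measured) summed to 136 on both lame R1 arrays and 111 to 126 in lame R2, though the median of their differences was -0.16. The sum of the 14 of 15 natural killer and cytotoxic cell markers measured went the other way, with 90.7 to 98.9 in lame R1 and 116 to 128 in lame R2. Of these 14, 9 were lower and 3 higher in lame R1 without overlap (28.5% and 48.5% of all genes). The part of these cells was not tested.

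**Figure D2:**
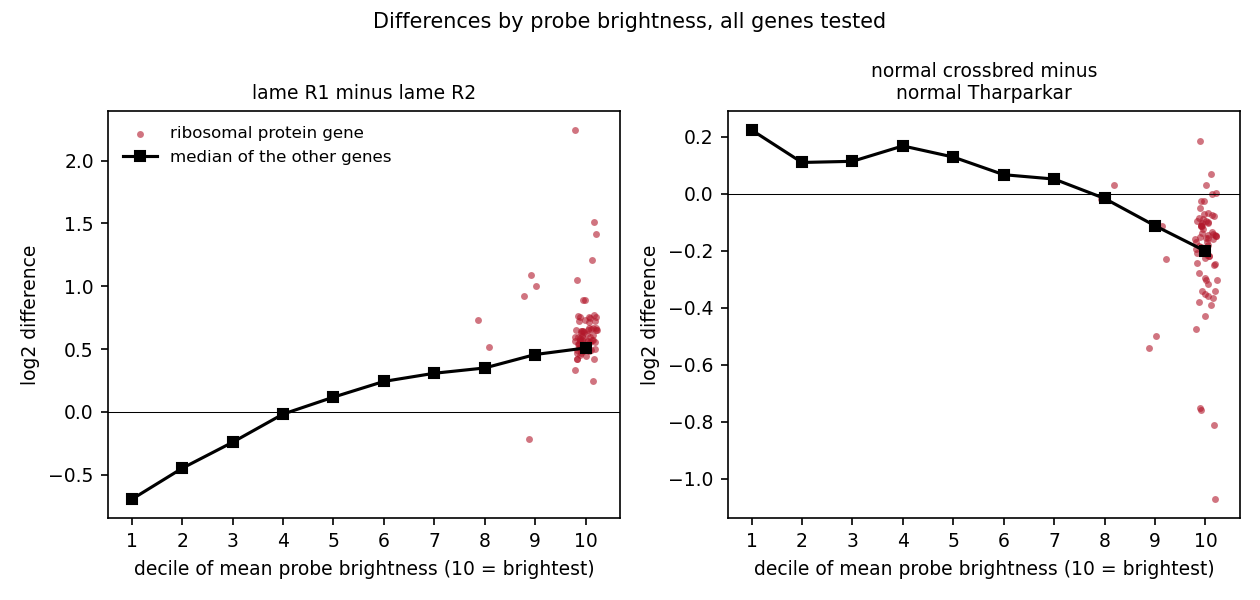
The x axis is the decile of mean probe brightness over the 15137 genes tested, and the y axis the log2 difference for lame R1 minus lame R2 (left) and normal crossbred minus normal Tharparkar (right). Points are the ribosomal protein genes and squares the medians of the other genes in each decile, which in the brightest decile were 0.51 on the left and -0.20 on the right.

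A few members stood off the family in lame R1 minus lame R2 under each of the 4 scalings. RPL39, a small protein of the large subunit near the exit of the peptide tunnel, was 6.46 and 6.68 in lame R1 and 4.47 and 4.19 in lame R2. Its normal crossbred arrays read 5.07 and 4.72 and its normal Tharparkar arrays 5.05 and 4.73. The lame R1 arrays thus lay above all others and the lame R2 arrays below all others, a difference of 2.24 between the samples (4.73-fold) and 1.65 beyond the family median (1.66 after quantile normalization). The other RPL39 probe differed by 0.54 on slide 1 and 0.14 on slide 2, so the size rests on 1 of the gene's 2 probes. RPS15A, a protein of the small subunit, was 5.81 and 4.68 in lame R1, against 3.86 and 3.81 in lame R2, and its lame R1 arrays differed from each other by more than its lame R2 and normal arrays did. Its other probes gave smaller differences, 0.65 and 0.41 on slide 1 and 0.70 and 0.53 on slide 2.

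RPL37A, a zinc-binding protein of the large subunit, was 7.05 and 7.20 in lame R1 and 4.83 and 6.40 in lame R2, and its normal arrays lay between 6.61 and 7.01. Lame R2_1 was the low array there, and the samples differed by 1.51. A further RPL37A probe, well above background on 6 arrays, read -4.59 and -4.50 in lame R2, where it was the only probe of the gene not above background. It read -0.59 and 0.12 in lame R1, -0.54 and -0.31 in normal crossbred and 0.39 and 1.02 in normal Tharparkar. RPL35 also lay above the family median, with a difference of 1.09. It was 4.32 and 4.19 in lame R1 and 3.34 and 2.98 in lame R2.

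At the other end, RPSA was the 1 member that was lower in lame R1. It encodes a small subunit protein that also serves as a receptor for laminin at the cell surface. It read 3.81 and 3.71 in lame R1 and 4.04 and 3.90 in lame R2, a difference of -0.21 (-0.24 on slide 1 and -0.19 on slide 2), and it lay -0.81 from the family median, or -0.71 after quantile normalization. RPSA has 1 measured probe, so no other probe could be set beside it. RPL3 (0.33), RPL13A (0.42) and RPL19 (0.42), all of the large subunit, were also below the family median, all with both lame R1 arrays above both lame R2 arrays.

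**Figure D3:**
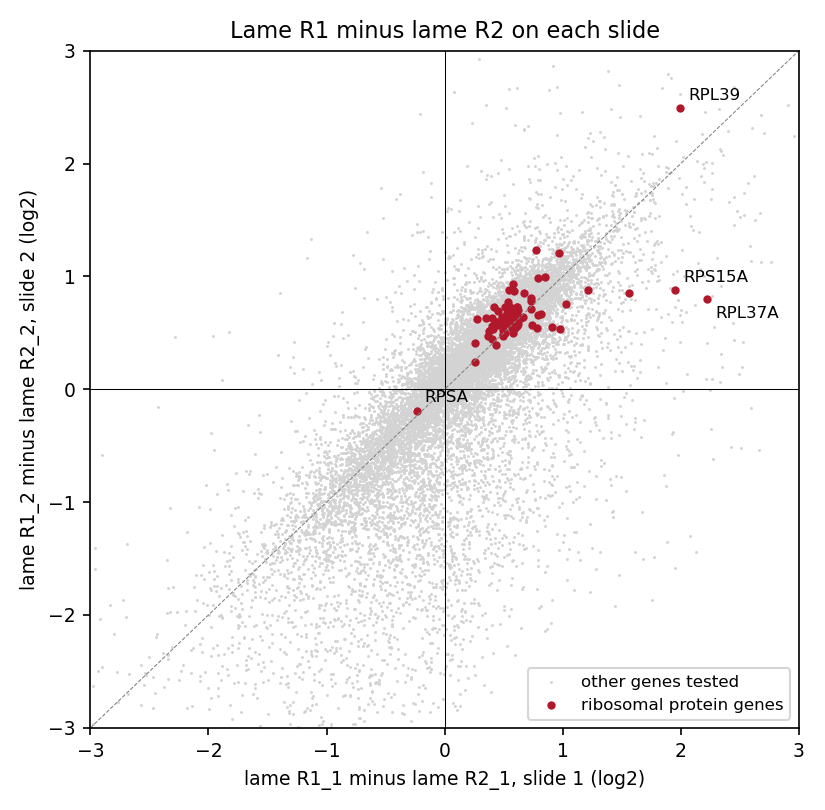
The log2 difference between lame R1 and lame R2 is drawn for slide 1 (x axis) and slide 2 (y axis), with 1 point per gene, and other genes beyond the axis limits are not drawn. The ribosomal protein genes cluster around 0.58 and 0.63, with RPL39 at 1.99 and 2.49, RPS15A and RPL37A larger on slide 1, and RPSA below 0 on both.

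In lame minus normal crossbred cows, no ribosomal protein gene was called. By limma, 0 of 76 were higher and 0 lower at an adjusted p under 0.05, against 3.25% and 6.33% of all genes, and 1 of the 76 had an unadjusted p under 0.05. Beside all genes, dim ones included, the family was tight. The SD of its log2 fold changes was 0.15, against 0.69 for all genes, and 97.4% lay within 0.5 of 0, against 67.7%. The spread of equally bright genes was not computed. The family's median was 0.05, against -0.04 for all genes. In the brightest decile the median was 0.04 for the members and -0.13 for the other genes. Single lame arrays turned the family's median: -0.0583 without lame R1_1 and -0.05 without lame R1_2, against 0.142 without lame R2_1 and 0.171 without lame R2_2. In 3 genes all lame arrays lay above both normal crossbred arrays and in 0 they lay below, where 15.7% and 23.2% of all genes did so.

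Split by RNA sample, the same comparison gave 2 opposite shifts at the 75th percentile scaling, but not after quantile normalization. Against the normal crossbred arrays, the median was 0.36 for lame R1, with 74 of 76 genes higher without overlap (41.1% of all genes), and -0.27 for lame R2, with 68 of 76 lower without overlap (49.4% of all genes). Against the normal Tharparkar arrays it was 0.16 for lame R1, with 52 higher without overlap (44% of all genes), and -0.47 for lame R2, with 71 lower without overlap (45.2% of all genes). All genes had medians of 0.05, -0.16, 0.08 and -0.09 in these 4 contrasts, which share arrays with each other. After quantile normalization the 76 genes had positive medians in all 4, 0.165 for lame R1 and 0.089 for lame R2 against normal crossbred, and 0.181 and 0.11 against normal Tharparkar. With normexp correction and with median scaling the medians were positive for lame R1 and negative for lame R2 against both normal groups.

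The 3 genes whose lame arrays all lay above the normal crossbred arrays were RPL28, RPL3 and RPSA. RPL28, a protein of the large subunit, was 6.41, 6.36, 5.92 and 5.83 in the lame arrays and 5.60 and 5.58 in the normal crossbred arrays, a log2 fold change of 0.54 (SE 0.21, adjusted p = 0.153). RPL3, which lies beside the catalytic centre of the large subunit, gave 0.34 (SE 0.17, adjusted p = 0.253), and RPSA gave 0.30 (SE 0.16, adjusted p = 0.291). After quantile normalization RPL28 (0.64, adjusted p = 0.011) and RPL3 (0.46, adjusted p = 0.0444) passed. The highest fold changes of the family, 0.56 for RPL39, 0.54 for RPL28 and 0.50 for RPS15A, and the lowest, -0.36 for RPL37A, -0.16 for RPS4X and -0.14 for RPL36AL, were otherwise of genes with overlapping groups.

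**Figure D4:**
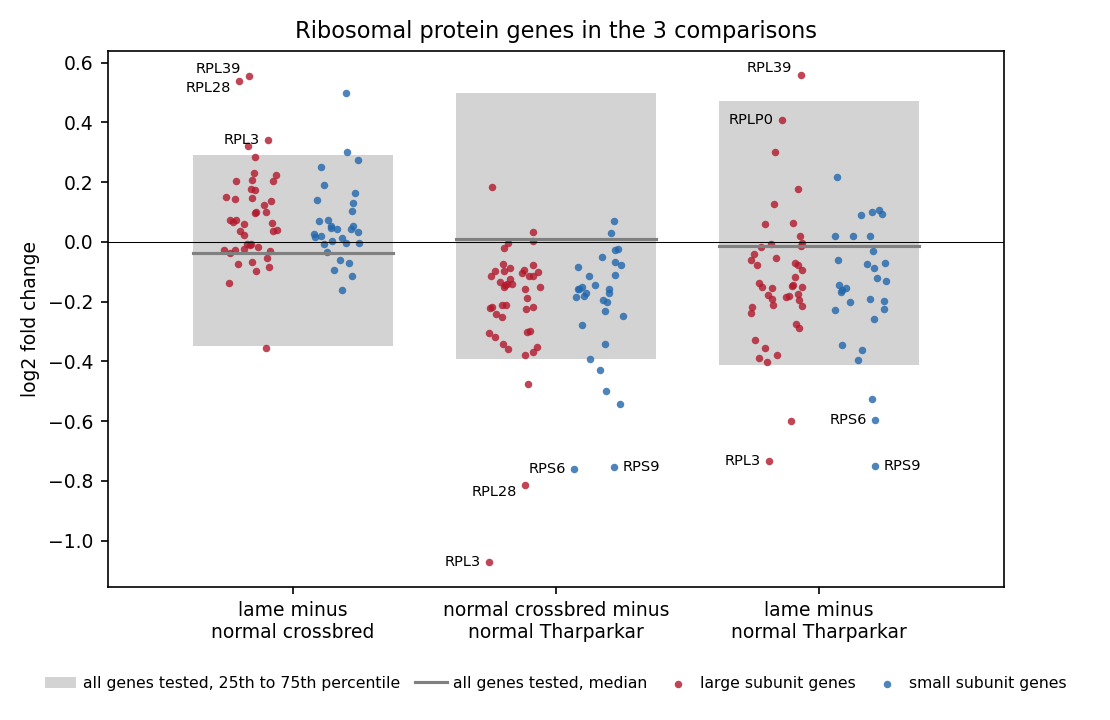
Each point is the log2 fold change of 1 ribosomal protein gene (large subunit with P stalk on the left of each column, small subunit on the right), and the grey bar spans the 25th to 75th percentile of all genes tested. Beside all genes tested, the family is narrow in all 3 comparisons. RPL3 lies lowest in normal crossbred minus normal Tharparkar (-1.07), with RPL28, RPS6 and RPS9 next.

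Normal crossbred minus normal Tharparkar cows gave the 1 called member of that comparison, RPL3, which was lower. RPL3 was 4.38 and 4.41 in the normal crossbred arrays and 5.51 and 5.43 in the normal Tharparkar arrays, groups that did not overlap, for a log2 fold change of -1.07 (SE 0.19, adjusted p = 0.00991; 2.10-fold). By limma 0 of the 76 genes were higher and 1 lower, against 11.8% and 6.9% of all genes, and 5 had an unadjusted p under 0.05. The pooled SE here also holds the spread between the lame samples. RPL10, for example, had an SD of 0.04 in normal crossbred, 0.02 in normal Tharparkar and 0.30 in lame arrays, and an SE of 0.24. A further 3 members lay off the family on the same side without passing. RPL28 was 5.60 and 5.58, against 6.49 and 6.32 (-0.81, SE 0.24, adjusted p = 0.0539). RPS6, the small subunit protein phosphorylated by the S6 kinases, was 6.25 and 6.17, against 7.03 and 6.91 (-0.76, SE 0.26, adjusted p = 0.0817). This was the most negative of the 7 RPS6 probes, which ran up to 0.19 here and spanned -0.60 to 0.50 for lame minus normal Tharparkar. RPS9, at the mRNA entry channel of the small subunit, was 6.74 and 6.60, against 7.45 and 7.39 (-0.75, SE 0.24, adjusted p = 0.068). Under quantile normalization all 4 passed, with -0.89 for RPL3, -0.64 for RPL28, -0.54 for RPS6 and -0.54 for RPS9.

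The rest of the family lay slightly below 0 in that comparison at the 75th percentile and median scalings, but not after quantile normalization or normexp correction. Its median was -0.16 (-0.17 on each slide), against 0.01 for all genes, and -0.203 with median scaling, but 0.04 after quantile normalization and 0.08 after normexp correction. Of 76 genes, 71 were negative, 61 had both normal crossbred arrays below both normal Tharparkar arrays (80.3%, against 40.3% of all genes) and 1, RPLP0, had both above (41.6% of all genes). The other genes in the brightest decile had a median of -0.20 and 61.3% of them were lower without overlap, against 82.9% of the 70 members there. T cell markers went opposite to the family at the 75th percentile scaling: the sum over 16 of 18 was 188 to 200 in normal crossbred and 104 to 105 in normal Tharparkar. So did 14 of 15 natural killer and cytotoxic cell markers as a sum, with 203 to 208 and 103 to 113. The sum over 9 of 12 proliferating cell markers went the family's way, with 31.4 and 41.5 to 42.0. So did the sum over 7 of 12 B cell markers, with 165 to 166 and 177 to 199. Of these 7, 3 were lower and 1 higher without overlap (40.3% and 41.6% of all genes). The part of any of these cells was not tested.

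In lame minus normal Tharparkar cows, 2 members were called and both fell, RPL3 and RPS9. RPL3 was 4.92, 4.88, 4.67 and 4.47 in the lame arrays, all below the 5.51 and 5.43 of the normal Tharparkar arrays, for a log2 fold change of -0.73 (SE 0.17, adjusted p = 0.0199; 1.66-fold). RPS9 was 6.97, 6.85, 6.57 and 6.30 in the lame arrays, again all below the 7.45 and 7.39 of the normal Tharparkar arrays (-0.75, SE 0.21, adjusted p = 0.038; 1.68-fold). Its other probe gave -0.43. By limma 0 of the 76 genes were higher and 2 lower, against 12.5% and 10.8% of all genes, with 4 at an unadjusted p under 0.05, and without overlap 1 was higher and 8 lower, against 24.8% and 25.1%. The median was -0.15 (-0.09 on slide 1 and -0.17 on slide 2), against -0.01 for all genes, and it turned to 0.14 after quantile normalization and 0.18 after normexp correction. It was -0.248 without lame R1_1, -0.244 without lame R1_2, -0.0496 without lame R2_1 and -0.0275 without lame R2_2. In the brightest decile the other genes had a median of -0.33, below the -0.15 of the 70 members there. The comparison shares its normal Tharparkar arrays with the one before, in which RPL3 and RPS9 gave -1.07 and -0.75.

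Leaving out arrays touched both calls. Without either normal Tharparkar array RPL3 and RPS9 no longer passed against normal Tharparkar cows (adjusted p = 0.16 and 0.221 without R1, 0.121 and 0.176 without R2), and RPS9 was also lost without lame R2_1 (0.0722) and without either normal crossbred array (0.0755 in each fit), and with the slide as a replicate block (0.0557). RPL3 in normal crossbred minus normal Tharparkar cows lost its call without any 1 of the 4 normal arrays (adjusted p = 0.0671 to 0.0834). Averaging duplicates, which leaves 1 residual degree of freedom, gave 0 calls in the family in all 3 comparisons, with adjusted p = 0.973 for RPL3 in normal crossbred minus normal Tharparkar cows.

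Read by the brightest probe of each gene, the P stalk of the large subunit, which recruits translation factors, had members on both sides of 0 between the breeds. RPLP0, its base, was 5.28 and 5.39 in the normal crossbred arrays and 5.15 on both normal Tharparkar arrays (0.18, SE 0.25, adjusted p = 0.66). In the lame arrays it read 5.80, 5.88, 5.32 and 5.23, all above the normal Tharparkar arrays (0.41, SE 0.22, adjusted p = 0.216), and it passed after quantile normalization (0.73, adjusted p = 0.00381). The 4 RPLP0 probes ran from -1.07 to 0.48 for normal crossbred minus normal Tharparkar, and the probe at -1.07 was called. They ran from -0.48 to 1.04 for lame minus normal Tharparkar, so the side of RPLP0 depends on the probe. RPLP1 gave -0.10 and RPLP2 -0.30 for normal crossbred minus normal Tharparkar, and for lame minus normal Tharparkar -0.08 and -0.38. Between the lame samples the 3 stalk genes differed by 0.56, 0.60 and 0.54, near the family median.

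Among RPS27A, RPS4X, RPL36AL and RPS27L, picked for a fusion or by the last letter of the symbol, RPS27L lay farthest from the family median. This held between the lame samples and between the normal breeds. RPS27A, made as a fusion with ubiquitin, was 7.19 and 7.24 in lame R1 and 6.61 and 6.74 in lame R2, against 6.93 and 6.97 in normal crossbred and 7.10 and 7.11 in normal Tharparkar. RPS4X, the X-linked small subunit gene, and RPL36AL, a copy of RPL36A, gave -0.16 and -0.14 for lame minus normal crossbred, with differences of 0.47 and 0.60 between the lame samples. RPS27L, a copy of RPS27 known in human cells as a p53 target, was 3.45 and 3.56 in lame R1, 2.61 and 2.57 in lame R2, a mean of 3.03 in normal crossbred (SD 0.04 between the duplicate arrays of 1 RNA sample), and 3.38 and 3.76 in normal Tharparkar. Its log2 fold change was -0.54 (SE 0.38, adjusted p = 0.37) for normal crossbred minus normal Tharparkar, where the family median was -0.16, and it differed by 0.92 between the lame samples, where the family median was 0.60. Ribosomal protein genes have many processed pseudogenes and some near-identical copies, and how far a probe reads them was not tested, so values of such pairs are uncertain.

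Probes of 1 gene differed by less than 1 on the log2 scale in most members but not in all. Among the 65 members with 2 or more measured probes, the range of log2 fold changes over a gene's probes had a median of 0.28 for lame minus normal crossbred, 0.24 for normal crossbred minus normal Tharparkar and 0.32 for lame minus normal Tharparkar. These ranges were larger than the family medians of 0.05, -0.16 and -0.15 in the same comparisons. In 7 of the 65 genes the range reached 1 between the normal breeds, and in 5 of those (RPS3, RPLP0, RPL3, RPS24 and RPL13A) the probes also differed in sign. Fitting every probe on its own, 2 of 242 member probes passed for lame minus normal crossbred (7.37% of all probes), 6 for normal crossbred minus normal Tharparkar (17.7%) and 5 for lame minus normal Tharparkar (21.6%).

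RPL3 had the widest spread, over 6 probes. Its probe A_73_P449236 went the same way as the brightest one and further: it read 2.12 and 2.22 in the normal crossbred arrays and 4.72 and 4.61 in the normal Tharparkar arrays (-2.50, 5.65-fold, the largest called decrease of the member probes), with the lame arrays at 3.12, 2.97, 3.19 and 2.85 between them. This probe was also higher in lame than in normal crossbred arrays (0.87, 1.82-fold). The probe A_73_P455891 went the opposite way: it read -0.41, -0.15, -0.64 and -0.50 in the lame arrays, -0.66 and -0.82 in normal crossbred, and -5.12 and -3.75 in normal Tharparkar, where it was well above background on 1 of 2 arrays. It is among the probes counted as called in both comparisons with normal Tharparkar, but no fold is given because 1 of those arrays was not well above background. With the mean of the 6 probes RPL3 turned to 0.17 and 0.47 in these comparisons and was not called. These means include A_73_P455891, and the turn rests on it. The direction of RPL3 thus depends on whether that probe, dim on 1 normal Tharparkar array, is counted.

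In RPS24, RPL13A and RPLP0 the brightest probe changed less than another probe in the comparisons given here. In RPL13A and RPLP0 these probes had opposite signs. RPS24, a small subunit gene whose transcripts are spliced in several forms in mammals, had 1 probe at 0.19 for lame minus normal crossbred and another, A_73_P037116, at 1.55 (SE 0.19, 2.94-fold, called). This probe read 2.03, 2.15, 1.67 and 2.19 in the lame arrays, 0.41 and 0.51 in normal crossbred and 1.70 and 1.96 in normal Tharparkar, so only the normal crossbred arrays stood apart. RPL13A, which also takes part in a complex that silences translation of inflammatory mRNAs in human monocytes, had a probe, A_73_P049706, at 5.20, 5.58, 4.82 and 4.93 in lame, 4.88 and 5.01 in normal crossbred and 3.28 and 3.80 in normal Tharparkar arrays. There the normal Tharparkar arrays stood apart (1.59 for lame minus normal Tharparkar and 1.40 for normal crossbred minus normal Tharparkar, both called), while the gene's brighter probe gave -0.14 and -0.34. The RPLP0 probe A_73_P099636 read 2.39 and 2.52 in normal crossbred and 3.55 and 3.51 in normal Tharparkar (-1.07, called), against 0.18 from the brightest probe. Which transcript or allele each probe reads was not tested.

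**Figure D5:**
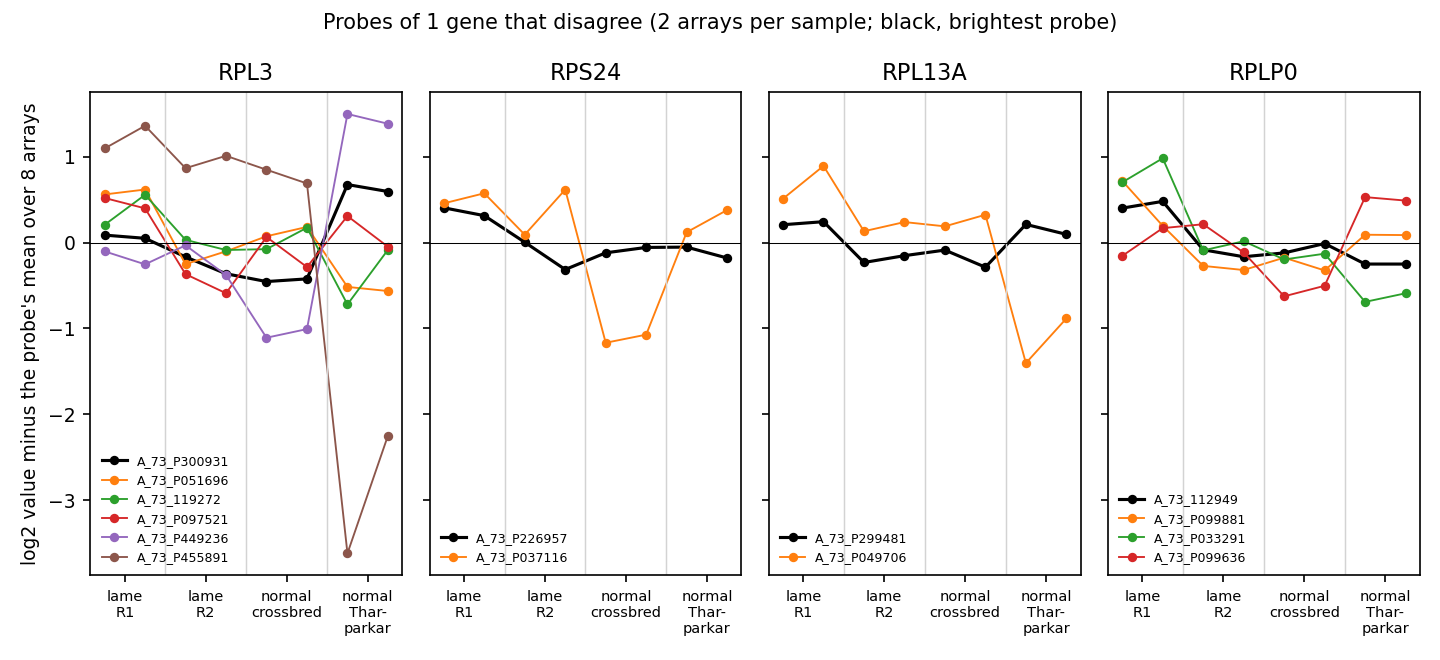
Each line is 1 probe, drawn as its log2 value minus its own mean over the 8 arrays (y axis), with 2 arrays per RNA sample (x axis), and the black line is the probe that represents the gene. The RPL3 probes A_73_P449236 and A_73_P455891 lie on opposite sides at normal Tharparkar, where A_73_P455891 was well above background on 1 of 2 arrays, and single probes of RPS24, RPL13A and RPLP0 leave the black line in 1 group.

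Other genes of protein synthesis gave similar medians. Of 31 translation factors and related genes with TOP-type mRNAs, the median was 0.05 for lame minus normal crossbred, -0.16 for normal crossbred minus normal Tharparkar and -0.15 for lame minus normal Tharparkar, and 0.49 for lame R1 minus lame R2, where 27 of 31 were higher without overlap (87.1%, against 48.5% of all genes and 85.3% of the other genes in the brightest decile). By limma 0 passed in the first 2 of these comparisons (0 and 1 at an unadjusted p under 0.05). Of all genes, 3.25% were higher and 6.33% lower in the first, and 11.8% and 6.9% in the second. In the third EIF2A rose (0.62, SE 0.17, adjusted p = 0.0365) and EIF3E, a subunit of initiation factor 3, fell (-0.57, SE 0.14, adjusted p = 0.023). Each is 3.23% of the list, against 12.5% and 10.8% of all genes. EEF1A1, the factor that delivers aminoacyl-tRNA, read 7.22 and 7.12 in lame R1, 6.89 and 6.76 in lame R2, 7.08 and 6.94 in normal crossbred and 7.29 and 7.22 in normal Tharparkar. The 75 mitochondrial ribosomal protein genes measured of 76 had medians of 0.01, -0.28 and -0.27 in the 3 comparisons and 0.57 between the lame samples. By limma 0 passed in lame minus normal crossbred cows (5 at an unadjusted p under 0.05), 1 rose and 5 fell in normal crossbred minus normal Tharparkar (1.33% and 6.67%, against 11.8% and 6.9% of all genes), and 0 rose and 8 fell in lame minus normal Tharparkar (10.7% lower, against 10.8% of all genes), among them MRPL12 (-0.97, SE 0.15, adjusted p = 0.00478).

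Of the 79 genes of ribosome assembly measured of 101, 3 rose and 1 fell in lame minus normal crossbred cows (3.8% and 1.27%, against 3.25% and 6.33% of all genes). RRP12, an export factor of pre-ribosomes, rose by 1.26 (SE 0.14, adjusted p = 0.0025), and NPM3, a nucleolar chaperone, by 2.40 (SE 0.53, adjusted p = 0.0336), while UTP23 fell (-0.68, SE 0.14, adjusted p = 0.027). In normal crossbred minus normal Tharparkar cows 3 rose and 10 fell (3.8% and 12.7%, against 11.8% and 6.9% of all genes). TSR2, a chaperone of RPS26, rose (3.74, SE 0.42, adjusted p = 0.00177), and MRTO4, which holds the place of the P stalk in the maturing large subunit, fell (-1.47, SE 0.21, adjusted p = 0.00429). NPM3, RRP12 and TAF1C, the 3 that rose in lame minus normal crossbred cows, fell there. Their log2 fold changes were -2.31 (SE 0.61, adjusted p = 0.0388), -1.15 (SE 0.16, adjusted p = 0.0038) and -1.33 (SE 0.31, adjusted p = 0.0263). None of them was called in lame minus normal Tharparkar cows. The rise and the fall of these 3 genes share the same 2 normal crossbred arrays, which enter the 2 comparisons with opposite sign. In lame minus normal Tharparkar cows 4 rose and 8 fell (5.06% and 10.1%, against 12.5% and 10.8% of all genes), with TSR2 (3.33, SE 0.36, adjusted p = 0.00126) and MRTO4 (-1.11, SE 0.18, adjusted p = 0.0059) moving as in normal crossbred cows, against the same 2 normal Tharparkar arrays.

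Among 21 measured regulators of ribosomal protein synthesis of 29, 2 fell and 0 rose in lame minus normal crossbred cows (9.52% lower, against 6.33% of all genes). They were MAX, the partner of MYC (-1.01, SE 0.20, adjusted p = 0.0248), and RPS6KA1, a kinase of RPS6 (-0.83, SE 0.14, adjusted p = 0.0125). MYC itself, which drives ribosome production, read 4.51 and 4.55 in lame R1 and 3.69 and 3.48 in lame R2, against 3.74 and 3.67 in normal crossbred and 4.15 and 4.20 in normal Tharparkar. Its lame R1 arrays were the highest of the 8, and its log2 fold change against normal crossbred cows was 0.36 (SE 0.33, adjusted p = 0.551). In lame minus normal Tharparkar cows 1 regulator rose, MDM2 (0.52, SE 0.14, adjusted p = 0.0313), and 3 fell, AKT1, RPS6KA1 and MXD4 (-0.90, -0.84 and -0.68), which is 4.76% and 14.3%, against 12.5% and 10.8% of all genes. The median of the 21 between the lame samples was 0.04. Of the 8 ribosomal genes with other symbols, RPL22L1, a copy of RPL22, was 1.21, 0.91, 1.42 and 1.39 in the lame arrays, all below the 2.23 and 1.96 of normal crossbred (-0.87, SE 0.19, adjusted p = 0.0317). Its normal Tharparkar arrays read 1.33 and 1.41, and lame minus normal Tharparkar gave -0.14 (SE 0.19, adjusted p = 0.628). RPL26L1 fell in lame minus normal Tharparkar cows (-0.87, SE 0.22, adjusted p = 0.0298). FAU and RACK1 had no call in any comparison and differed by 0.63 and 0.48 between the lame samples.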

How the data were processed

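Total RNA of PBMCs, Cy3-labelled, was measured on 8 Agilent bovine arrays. The deposited intensity values are processed signals, background-subtracted and detrended within the array but not scaled between arrays, per the file headers, which name Feature Extraction 12.0.3.1 (11.5.1.1 per the submitters' processing notes). The deposited log2 table held the same values minus each array's 75th percentile and each probe's centre, as found by setting it against the scanner intensity. Scale and centring were thus settled. Its column medians were -0.12 to 0.88.

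Log2 processed signals were centred on each array's 75th percentile, after leaving out 35 probes with outlier spots, none of a ribosomal protein gene. Accessions were matched without versions to RefSeq symbols (27054 probes). A probe was kept where some group had it well above background on all its arrays, and a gene took its kept probe with the highest mean. All 8 arrays entered 1 limma 3.58.1 fit (R 4.3.3) with 3 group means (5 residual and 2.34 prior degrees of freedom), and p-values were adjusted by Benjamini-Hochberg over all 15137 genes. The fit was tested on simulated data. Lame R1 against lame R2 is given without a test. Members and gene lists were chosen with earlier results of these data known. Genes were named if called (up to 15), among the 5 highest or lowest of a comparison, if of a fixed set (RPLP0, RPLP1, RPLP2, RPSA, RPS6, RPS27A and symbols ending in L, X or Y), or if their probes disagreed in sign by 1 or more on the log2 scale; up to 6 called genes were taken from each other list, and those named besides were chosen after their values were seen. The 15 lists also covered markers of other blood cells. Normexp used median spot signals in place of means. Some members that this rule names are not reported here. Probe sequences were not used here. Array precision is limited by the number of arrays.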

Additional observations from a re-analysis of the deposited data

How the results depend on the processing

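Counts below are of ribosomal protein genes called (of 76, or of 78 without the filter on dim probes), and medians are of their log2 fold changes. Against normal Tharparkar cows, the lame group's median turned to 0.181 with normexp correction and 0.144 with quantile normalization and was -0.699 with median scaling, and the 2 lower calls became 0 with normexp, with median scaling, without the filter on dim probes, with a gene's probes averaged and with duplicates averaged. For normal crossbred against normal Tharparkar cows, the 1 lower call became 0 with median scaling, without the filter and with duplicates averaged, 2 with probes above background on all 8 arrays and with probes averaged, and 4 with quantile normalization. Quantile normalization also gave 2 higher calls for lame against normal crossbred cows and 4 against normal Tharparkar cows, and averaging probes gave 1 and 1. Averaging also turned RPL3 to 0.168 (normal crossbred against normal Tharparkar) and 0.473 (lame against normal Tharparkar). That turn rests on 1 probe, A_73_P455891, which was not well above background on 1 normal Tharparkar array. Median scaling moved the lame against normal crossbred median to -0.458, with that of all genes at -0.547. Fitting each of 242 probes gave 2 higher and 0 lower for lame against normal crossbred, 2 higher and 3 lower for lame against normal Tharparkar, and 2 higher and 4 lower for normal crossbred against normal Tharparkar. Array weights gave 48 higher for lame against normal crossbred cows (24.5% of all genes; median 0.325), 12 higher and 4 lower against normal Tharparkar cows (30.7% and 25.2%; median turned to 0.123), and 21 lower for normal crossbred against normal Tharparkar cows (29.7%). The cause of these changes was not tested.

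With lame R1 alone, 61 genes were higher than in normal crossbred cows (median 0.362; 24.8% of all genes) and 23 higher and 3 lower than in normal Tharparkar cows (0.158; 30.6% and 24.8%). With lame R2 alone, 25 were lower than in normal crossbred cows (-0.275; 31.3% of all genes) and 60 lower than in normal Tharparkar cows (-0.473; 34.1%). The scalings of each lame sample against each normal group were chosen after seeing the data. The lame R1 minus lame R2 median was 0.0601 with quantile normalization (30 genes without overlap) and 1.54 with median scaling. The normal groups share the numbers R1 and R2, which are also the slides, and with the slide as replicate block the lower calls of lame against normal Tharparkar cows became 1, with no other call changed. Leaving out single arrays gave 0 to 4 lower for normal crossbred against normal Tharparkar (2 without lame R1_1, 4 without lame R2_2 and 0 without any 1 normal array), and 0 to 3 lower for lame against normal Tharparkar (0 without either normal Tharparkar array, 1 without lame R2_1 or either normal crossbred array). The authors' table gave the same counts. The sequence description was not run. With 1 RNA sample per normal group, biological spread within the normal groups was not measured.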

Other observations

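Further marker lists were read beside the ribosomal protein genes, with no explanation tested. The summed level of 14 of 16 monocyte markers was 225 to 233 times the array's 75th percentile signal in lame R1, 217 to 242 in lame R2, 186 to 191 in normal crossbred and 191 to 204 in normal Tharparkar. The median of these 14 was -0.26 for lame R1 minus lame R2, with 9 lower and 3 higher without overlap (28.5% and 48.5% of all genes). That of 7 of 12 erythroid markers was 84.0 to 91.5, 51.6 to 57.6, 31.2 to 31.6 and 78.5 to 88.3 in the same order, but most of its genes went against the sum. Their median was -0.61 for lame R1 minus lame R2, with 5 of 7 lower without overlap (28.5% of all genes). It was 0.29 for normal crossbred minus normal Tharparkar, with 4 of 7 higher without overlap (57.1%, against 41.6% of all genes). For 5 of 12 platelet markers the sum was 39.2 to 40.7, 43.9 to 44.4, 35.3 to 36.8 and 28.5 to 29.8, and for 6 of 8 plasma cell markers 44.5 to 46.6, 43.8 to 45.0, 52.6 to 56.9 and 68.6 to 73.2. The plasma cell markers had a median of -0.37 for lame R1 minus lame R2, with 4 lower and 2 higher without overlap. Granulocyte markers summed to 172 to 182 in normal crossbred and 220 to 224 in normal Tharparkar. In lame minus normal crossbred cows 9 of the 14 measured fell (64.3%, against 6.33% of all genes), with a median of -1.69.

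The 10 housekeeping genes measured had medians of -0.19 for lame minus normal crossbred, -0.12 for normal crossbred minus normal Tharparkar and -0.36 for lame minus normal Tharparkar, and of 0.35 for lame R1 minus lame R2. Actin (ACTB) lay at 4.91 and 4.85 in lame R1 and at 4.25 and 4.46 in lame R2.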
